A study of Mus musculus with 2 samples.

Results

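Fragments of the mouse Y RNAs Rny1 and Rny3 and of the vault RNA Vaultrc5 were examined in the small RNAs of dendritic cells. The fragments were chosen by sequence alone. A listed sequence counted as a fragment when it matched the sense strand of a GENCODE vM21 transcript of Rny1, Rny3 or Vaultrc5 over its full length, or with up to 3 unmatched bases at its 3′ end and at least 18 nt matched. This found 181 of the 538100 distinct sequences listed, of which 51 belonged to Rny1, 50 to Rny3 and 80 to Vaultrc5. They held 881 reads of the nuclear and 455 reads of the cytoplasmic library. No sequence matched more than 1 of these RNAs.

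The cells were dendritic cells grown from bone marrow of C57BL/6 mice for 7 days with GM-CSF and IL-4 and treated with LPS, a bacterial lipopolysaccharide, and both libraries share all of this. The nuclear library came from the pellet with the nuclei after the cells were swelled with NP40, and the cytoplasmic library from the remaining fraction. There was 1 library of each and no untreated sample was analysed here, so no difference has a replicate check and no response to LPS was measured. The study's stated aim is to find small RNAs concentrated in the nucleus of innate immune cells.

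Y RNAs are short transcripts of RNA polymerase III whose ends pair into a stem. The protein Ro60 binds this stem, the La protein binds the run of U at the 3′ end, and the particles they form act in RNA quality control. Vault RNAs, also made by RNA polymerase III, are the RNA part of the vault, a large barrel-shaped cytoplasmic particle of the major vault protein, which is abundant in macrophages and dendritic cells. Both kinds of RNA are cut into smaller fragments, and Y RNA fragments are known from stressed cells, vesicles and blood.

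In GRCm38, Rny1 lies on the minus strand at chr6:47788069-47788180 and Rny3 on the plus strand at chr6:47781624-47781725, with 6343 bases between them. Neither overlaps another annotated gene, and the nearest protein-coding gene of both is Pdia4. The GENCODE transcripts are shown to place the fragments, with the most read 5′ and the most read 3′ fragment of each in capitals.
Rny1, 112 nt: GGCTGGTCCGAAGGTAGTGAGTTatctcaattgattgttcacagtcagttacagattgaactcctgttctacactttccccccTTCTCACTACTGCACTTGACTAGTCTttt
Rny3, 102 nt: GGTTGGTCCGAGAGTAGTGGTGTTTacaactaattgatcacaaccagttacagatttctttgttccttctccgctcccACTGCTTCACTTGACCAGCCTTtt
Positions below count from 1 at the 5′ end of these transcripts. Vaultrc5 is described by position only.

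In the structure of lowest energy that RNAfold predicted for Rny1, 17 of the 23 bases of the most read 5′ fragment (positions 1 to 23) were paired, with partners between positions 86 and 108. The most read 3′ fragment of Rny1 (positions 84 to 109) had 17 of 26 bases paired, with partners between 1 and 21. For Rny3, 21 of the 25 bases of the most read 5′ fragment were paired, with partners between 73 and 98. The 5′ and 3′ fragments thus correspond to the opposite strands of the predicted stem. The first 24 bases of Rny1 and Rny3 are identical at 17 positions, with C3T, A12G, G13A, A20G, G21T, T22G and A24T from Rny1 to Rny3. The last 24 bases are identical at 20 positions.

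Depth was similar, with 2000019 nuclear and 2041383 cytoplasmic reads, and levels are in RPM, reads scaled to the total listed in each library. The level ratio is the nuclear over the cytoplasmic level. It is given with an exact 95% interval conditional on the reads of both libraries, which covers counting error only: the reads were amplified by PCR with no molecular identifier and need not stem from separate molecules. An RNA was called higher or lower when its log2 ratio, with a pseudocount of 0.5 reads, reached 2-fold and the interval excluded 1. Of the 980 small RNA entries (genes or miRNA arms) with at least 50 reads, 43.8% were called higher in the nuclear library and 10.5% were called lower. Their median log2 ratio was 0.71. All 5 markers fixed for the nuclear fraction were higher, from Malat1 (6.04-fold) to Snord14c (56.9-fold). The 3 markers fixed for the cytoplasmic fraction were mitochondrial transcripts. Only 1 of them was called lower in the nuclear library, mt-Ts2 (154 nuclear and 1743 cytoplasmic reads). The other 2, mt-Rnr1 (1650 and 2158) and mt-Rnr2 (2017 and 2307), were not called, with ratios of 0.780 and 0.892. Myeloid miRNAs were present in both libraries, among them Mir142-5p (3218 nuclear and 5565 cytoplasmic reads), Mir223-3p (392 and 612) and Mir155-5p (12219 and 9002). Of 7 measured, 3 were called lower in the nuclear library, Mir146-5p (502 and 1447), Mir511-3p (192 and 449) and Mir342-3p (778 and 2478), and the list's median log2 ratio was -0.76. Messenger RNAs that mark dendritic cells cannot be judged from fragments of this size. The 6 marker miRNAs of other cells summed to 1056 nuclear and 621 cytoplasmic reads, and 3 of them were higher in the nuclear library. The hepatocyte Mir122-5p had 287 and 24 reads, the muscle Mir1a-1-3p 108 and 7, the stromal Mir143-3p 99 and 46 and Mir199a-1-3p 562 and 540. Both Mir451a-5p of red cells and the stromal Mir145a-5p had no nuclear and 2 cytoplasmic reads. Their part in the Y RNA values was not tested.

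Rny3 had 425 nuclear and 84 cytoplasmic reads, or 212 and 41.1 RPM, a ratio of 5.16 (95% interval 4.08 to 6.61), and was called higher in the nuclear library. Rny1 had 167 nuclear and 96 cytoplasmic reads, or 83.5 and 47.0 RPM, a ratio of 1.78 (95% interval 1.37 to 2.31) that excluded 1 but did not reach 2-fold. Vaultrc5 had 289 nuclear and 275 cytoplasmic reads, or 144 and 135 RPM, a ratio of 1.07 (0.906 to 1.27). Rny3 was thus the most read of the Y RNAs in the nuclear library, while Rny1 and Rny3 had similar counts in the cytoplasmic one. With 1 of 3 called higher, against 43.8% of all entries, the count of calls does not set these RNAs apart. Across the 980 entries, 76.5% had a lower log2 ratio than Rny3, 52.3% a lower one than Rny1 and 35.8% a lower one than Vaultrc5. RPM is a share of each library's own reads, of which miRNAs made up 40.5% in the nuclear and 74.8% in the cytoplasmic library. The amount of RNA in each fraction is not known here, so a ratio does not show which fraction held more molecules of an RNA. Whether a lower level in bulk RNA reflects fewer cells with the fragment or fewer copies per cell cannot be told apart here either.

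Differences between the RNAs do not depend on how the libraries are scaled. The ratio of Rny3 was 2.90 times that of Rny1 (exact 95% interval 2.03 to 4.16) and 4.81 times that of Vaultrc5 (3.58 to 6.49). The ratio of Rny1 was 1.65 times that of Vaultrc5 (1.21 to 2.26). The order from Rny3 through Rny1 to Vaultrc5 was therefore separated beyond the counting error of the reads at each step. It was lost when distinct sequences were counted once, with log2 ratios of -1.38 for Rny3, -1.37 for Rny1 and -1.35 for Vaultrc5. The levels themselves depend on the scaling: the log2 ratio of Rny3 stayed between 1.65 and 3.25 under the other 4 scalings tried, that of Rny1 between 0.11 and 1.71, and that of Vaultrc5 became negative with edgeR's TMM factors (-0.49) and DESeq2's median of ratios (-0.61).

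The reads of each RNA were divided into 5′ fragments, which start within 5 nt of the first base of the transcript, 3′ fragments, whose last matched base lies within 5 nt of its end, and internal fragments. In both Y RNAs the 5′ fragments carried the excess in the nuclear library. The 5′ fragments of Rny3 had 420 nuclear and 73 cytoplasmic reads and a nuclear excess of 5.87-fold (4.57 to 7.64). Those of Rny1 had 123 and 35 reads and an excess of 3.59-fold (2.45 to 5.38). The call of both held under all 4 other scalings, with log2 ratios from 1.83 to 3.43 for Rny3 and from 1.12 to 2.71 for Rny1. The ratio of the Rny3 5′ fragments was 1.64 times that of the Rny1 5′ fragments (1.01 to 2.62), an interval that only just excluded 1.

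The 3′ fragments did not share this excess. Those of Rny1 had 28 nuclear and 44 cytoplasmic reads, or 14 and 21.6 RPM, a ratio of 0.650 whose interval held 1 (0.389 to 1.07). Its log2 ratio was -1.20 with TMM factors and -1.32 with the median of ratios, which made it lower by the rule, and 0.27 when the miRNA reads were the total. Within Rny1, the ratio of 5′ fragments was 5.47 times that of 3′ fragments (2.89 to 10.6), a comparison in which the library size cancels. Rny3 had no 3′ fragment in the nuclear library and 8 reads in the cytoplasmic one, which puts the cytoplasmic level at least 2.61-fold higher when 3 reads are taken as the nuclear floor. The lower end of the interval for its 5′ over 3′ ratio of ratios was 9.50, and it was 4.04 with full-length matches only, 1.22 with sequences of at least 2 reads and 1.42 over distinct sequences. Of the 8 reads, 4 had unmatched 3′ bases, and the call was lost with full-length matches only (4 reads). With an end distance of 0 nt instead of 5 nt, only 2 Rny1 and 1 Rny3 reads remained as 3′ fragments, too few to compare with the 5′ fragments.

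**Figure D1:**
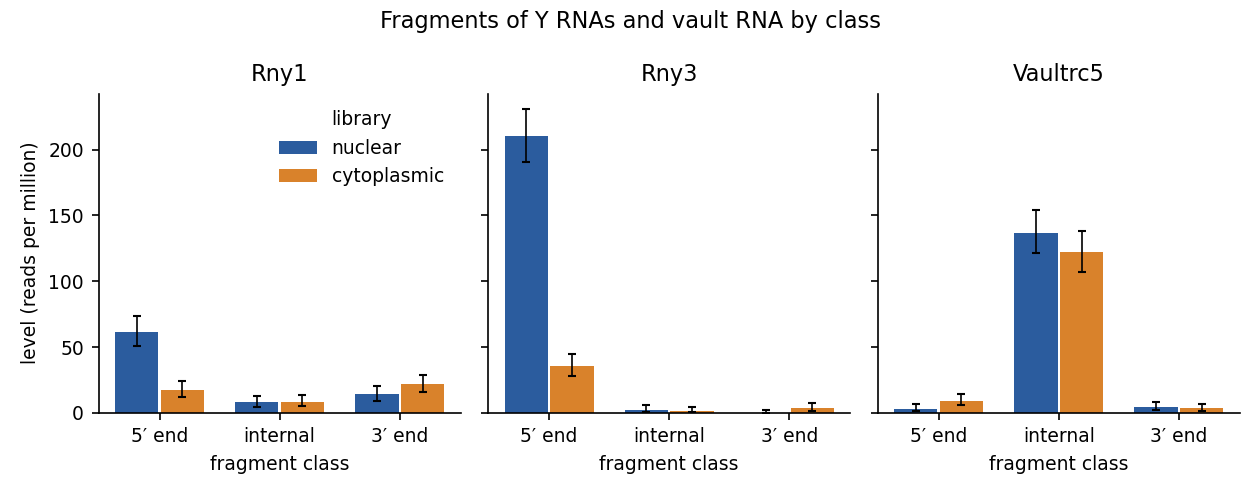
Level in RPM of the 5′, internal and 3′ fragments of Rny1, Rny3 and Vaultrc5 in the nuclear (blue) and cytoplasmic (orange) library, with exact 95% Poisson intervals for the counts. The nuclear excess of the Y RNAs stands in their 5′ fragments (61.5 against 17.1 RPM for Rny1 and 210 against 35.8 for Rny3), while Vaultrc5 consists mainly of internal fragments at 137 and 122 RPM.

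The shares of each class differed between the libraries accordingly. Of the Rny1 reads, 73.7% were 5′ fragments in the nuclear library (exact Clopper-Pearson 95% interval 66.3 to 80.2) and 36.5% in the cytoplasmic one (26.9 to 46.9), where 45.8% were 3′ fragments. Of the Rny3 reads, 98.8% (97.3 to 99.6) and 86.9% (77.8 to 93.3) were 5′ fragments. Rny3 thus left mainly its 5′ strand in both libraries, whereas the cytoplasmic Rny1 reads came from both strands of the stem. The internal fragments of Rny1 had 16 nuclear and 17 cytoplasmic reads. Most of them were 3′ fragments that ended before the last 5 bases: starts at positions 83 to 88 had 44 nuclear and 54 cytoplasmic reads in all. The part of Rny1 between its 5′ and 3′ fragments gave 6 cytoplasmic reads starting between positions 41 and 54 and no nuclear read. The 5 of these that started at position 41 are of sequences that annotated copies share, so they need not come from Rny1. Positions 26 to 40 and 72 to 81 were covered by no read. Rny3 had 5 nuclear and 3 cytoplasmic internal reads.

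**Figure D2:**
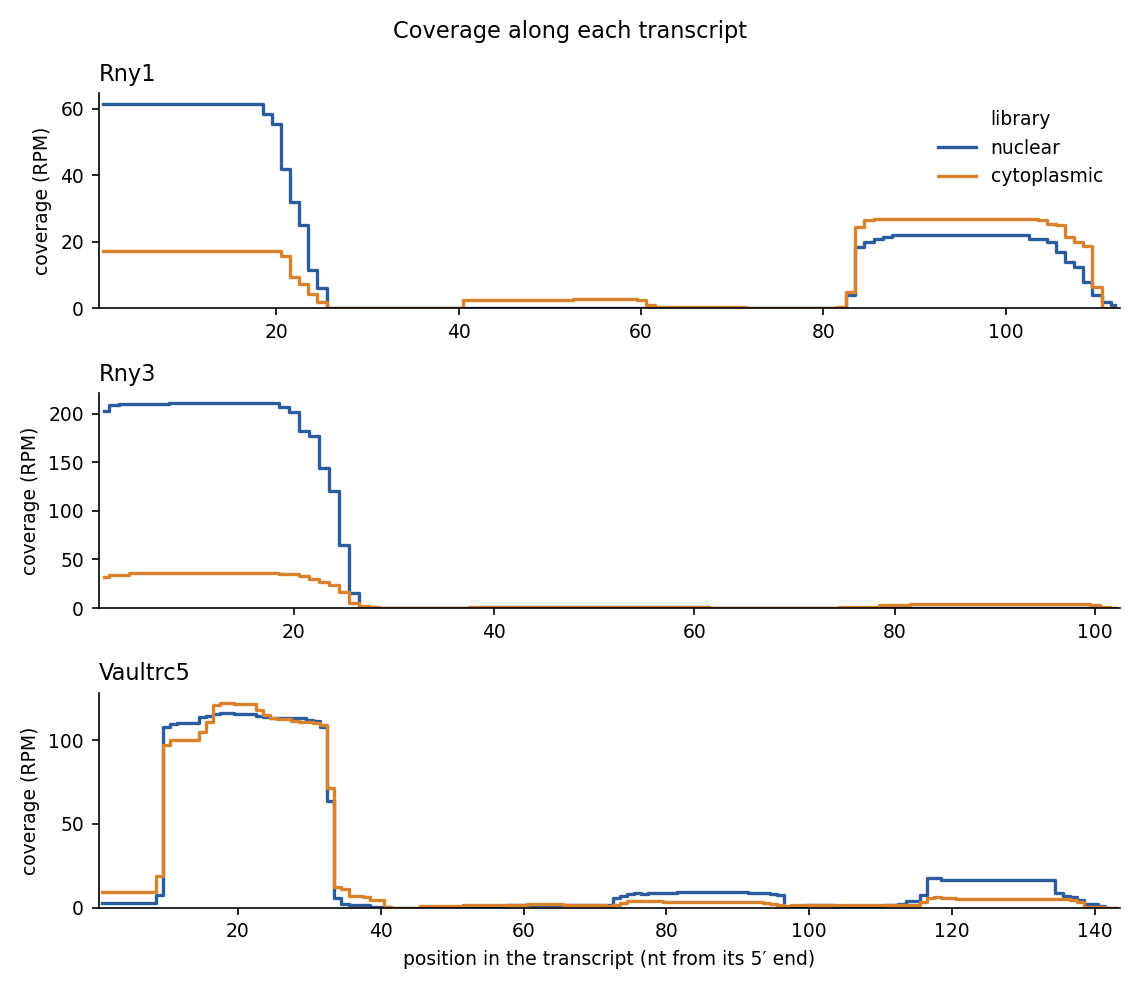
Coverage in RPM at each base of Rny1, Rny3 and Vaultrc5, counted from the 5′ end, in the nuclear (blue) and cytoplasmic (orange) library. Rny1 was covered at both ends, with the nuclear library above at the 5′ end and the cytoplasmic library above over most of the 3′ end, Rny3 was covered at its 5′ end almost alone, and Vaultrc5 mainly over positions 10 to 33.

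The 5′ fragments had a fixed start and a spread of ends. In the nuclear library 406 of the 425 Rny3 reads and 123 of the 167 Rny1 reads started at position 1, and in the cytoplasmic library 65 of 84 and 35 of 96. All 5′ fragments of Rny1 started at position 1, and those of Rny3 at positions 1 to 4. The most read sequences show the spread of ends; capitals mark the bases that match the transcript.
Rny3, positions 1 to 25: GGTTGGTCCGAGAGTAGTGGTGTTT
Rny3, positions 1 to 24: GGTTGGTCCGAGAGTAGTGGTGTT
Rny3, positions 1 to 22: GGTTGGTCCGAGAGTAGTGGTG
Rny3, positions 1 to 20: GGTTGGTCCGAGAGTAGTGG
Rny1, positions 1 to 23: GGCTGGTCCGAAGGTAGTGAGTT
Rny1, positions 1 to 21: GGCTGGTCCGAAGGTAGTGAG
Rny1, positions 1 to 20: GGCTGGTCCGAAGGTAGTGA

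The Rny3 sequence of 25 nt had 96 nuclear and 22 cytoplasmic reads, a ratio of 4.45 (2.78 to 7.44). That of 24 nt had 103 and 14 reads (7.51, 4.28 to 14.2), that of 22 nt 63 and 6 reads (10.7, 4.66 to 30.3) and that of 20 nt 37 and 3 reads (12.6, 3.99 to 63.8). All 4 were higher in the nuclear library, and their intervals overlapped. The 6 most read Rny3 sequences also held that of positions 1 to 23, with 43 and 5 reads (8.78, 3.48 to 28.4). The last was that of positions 1 to 26, with 26 and 2 reads (13.3, 3.32 to 115), and both were higher too. The Rny1 sequence of 23 nt had 27 and 6 reads (4.59, 1.86 to 13.6), that of 20 nt had 24 and 3 (8.17, 2.48 to 42.4), and that of 21 nt had 19 and 11 (1.76, 0.797 to 4.10), which was not called. Of the 12 sequences of the 3 RNAs with at least 20 reads, 8 were higher in the nuclear library (6 of 6 from Rny3, 2 of 4 from Rny1, 0 of 2 from Vaultrc5) and 0 lower, where 44.0% of all 8447 sequences with as many reads were higher and 23.2% lower. Sequences of 1 RNA overlap and are not independent of each other.

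Ends of Rny3 fragments were most frequent at position 24 (111 reads) and 25 (99) in the nuclear library and at position 25 (24) and 24 (15) in the cytoplasmic one. Ends of Rny1 fragments at the 5′ side were most frequent at positions 20 and 23 in the nuclear library, with 27 reads each against 3 and 6 cytoplasmic reads. In the cytoplasmic library they were most frequent at position 21, with 13 reads against 20 nuclear ones (ratio 1.57, 0.743 to 3.44). The median length of the 5′ fragments was the same in both libraries, at 24 nt for Rny3 and 22 nt for Rny1. Reads of 28 nt or more were rare in both libraries as a whole (0.222% of nuclear and 0.144% of cytoplasmic reads). The Y RNAs had none of that length in the nuclear library and 4 in the cytoplasmic one (3 from Rny1, 1 from Rny3). Longer Y RNA pieces, which are known from other sources, would be seen here only up to the longest listed length of 39 nt.

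**Figure D3:**
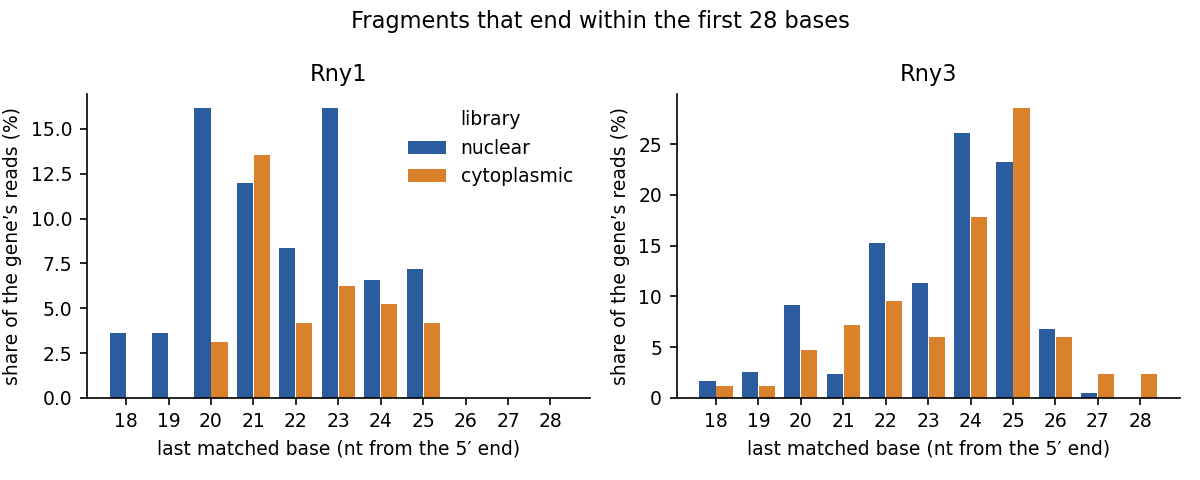
Share of all reads of Rny1 (left) and Rny3 (right) whose last matched base lies at positions 18 to 28, in percent, in the nuclear (blue) and cytoplasmic (orange) library. Rny3 fragments ended most often at positions 24 and 25 in both libraries, and nuclear Rny1 fragments most often at positions 20 and 23.

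Reads from the 3′ side of Rny1, including those classed as internal because they end early, also had a preferred start, at position 84, with 29 nuclear and 40 cytoplasmic reads. Position 83 had 8 and 9 reads, and position 85 had 3 and 4. Among their ends, 1 position was called: an end at position 109 had 8 nuclear against 25 cytoplasmic reads, a cytoplasmic excess of 3.06-fold (1.34 to 7.85). Of these cytoplasmic reads, 6 were of 1 sequence with an unmatched A, which had 0 nuclear reads. The other sequences ending there with an unmatched A had 0 nuclear and 1 cytoplasmic read each. Full-length sequences ending there had 7 nuclear and 14 cytoplasmic, 1 and 1, and 0 and 2 reads, and none was called by itself. Whether the call at this end holds without the unmatched A was not tested. Position 109 was picked after its value was seen, and its interval is not adjusted for the number of ends. Position 108 had 9 and 3 reads and position 110 had 4 and 13, both with intervals that held 1. The sequences behind these counts and the most read 3′ fragment of Rny3 are given with unmatched 3′ bases in lower case.
Rny1, positions 84 to 109: TTCTCACTACTGCACTTGACTAGTCT
Rny1, positions 84 to 109 with an added base: TTCTCACTACTGCACTTGACTAGTCTa
Rny1, positions 84 to 110: TTCTCACTACTGCACTTGACTAGTCTT
Rny3, positions 79 to 100 with an added base: ACTGCTTCACTTGACCAGCCTTa

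These sequences stop within the run of T that ends both transcripts and before its last base. The first had 7 nuclear and 14 cytoplasmic reads, its form with an added A had 0 and 6, and the third had 3 and 9. The Rny3 sequence had 0 and 2. Unmatched 3′ bases, which can be bases added to the RNA or errors of sequencing or trimming, were found in 10 of 44 cytoplasmic 3′ fragments of Rny1 (22.7%, 11.5 to 37.8) and in 0 of 28 nuclear ones, which allows up to 12.3%. In 9 of the 10 they were A alone. Counted over all Rny1 reads that start downstream of the transcript's midpoint, however, they were in 7 of 44 nuclear (15.9%, 6.64 to 30.1) and 11 of 55 cytoplasmic reads (10.4 to 33.0). The 7 nuclear ones all lay on reads that ended more than 5 nt before the end of the transcript. Over all 3 RNAs together unmatched bases were in 4.09% of nuclear (2.88 to 5.61) and 7.69% of cytoplasmic reads (5.42 to 10.5). The RNAs differed in this. For Rny3 the shares were 4.24% (2.53 to 6.61) and 16.7% (9.42 to 26.4), with intervals that did not overlap. Its 5′ fragments alone had unmatched bases in 3.81% (2.19 to 6.11) and 12.3% (5.80 to 22.1). For Rny1 the shares were 7.19% (3.77 to 12.2) and 15.6% (9.02 to 24.5), and for Vaultrc5 2.08% and 2.18%. Fragments of small nucleolar RNAs had them in 2.99% and 6.10% of reads, and miRNAs in 17.6% and 17.1%.

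Vaultrc5 lies on the plus strand of chromosome 18 (GRCm38, 36801866 to 36802008), outside other annotated genes and 2200 bases from Zmat2. Its main fragments also lay near the 5′ end, but started further in than those of the Y RNAs. The 5 nt rule therefore classed most of them as internal. With an end distance of 10 nt, 219 nuclear and 204 cytoplasmic reads of Vaultrc5 counted as 5′ fragments. The most read Vaultrc5 fragments started at position 10, with 200 nuclear and 159 cytoplasmic reads, which were 69.2% (63.5 to 74.5) and 57.8% (51.7 to 63.7) of its reads. The fragment from 10 to 33 had 101 nuclear and 91 cytoplasmic reads and that from 10 to 32 had 85 and 61. The ratios of these sequences were 1.13 (0.845 to 1.52) and 1.42 (1.01 to 2.01), and neither was called. The median length was 23 nt in both libraries. In the predicted structure 14 of the 24 bases from 10 to 33 were paired, with partners between positions 78 and 127.

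Vaultrc5 reads starting downstream of the transcript's midpoint were 54 nuclear and 21 cytoplasmic, a ratio of 2.62 (1.56 to 4.58), called higher. Those starting upstream of it were 235 and 254, a ratio of 0.944 (0.787 to 1.13) that was not called. These 2 ratios were not recomputed under other scalings. Around the main fragment the less read starts leaned to either library. The 5′ fragments, all starting at position 1, had 6 nuclear and 19 cytoplasmic reads, a cytoplasmic excess of 3.10-fold (1.19 to 9.49). That call was lost under scaling to the miRNA total (log2 ratio -0.67) and to the reads with a transcript match (-1.13), and with an end distance of 10 nt, which takes in the fragments starting at position 10, the log2 ratio turned to 0.13. Start 17 leaned the same way with 2 and 21 reads (10.3-fold, 2.51 to 90.5), and start 16 had 2 and 12 (5.88-fold, 1.31 to 54.1). At the other side of the molecule, start 117 had 20 and 5 reads, a nuclear excess of 4.08-fold (1.49 to 13.9), and start 73 had 9 and 1 (9.19, 1.27 to 403). An end at position 134 was read 15 times in the nuclear library and 0 times in the cytoplasmic one, which makes it at least 5.10-fold higher with 3 cytoplasmic reads as the floor. Reads that reached position 138 or beyond, the 3′ fragments, were 9 and 7. These positions were picked from all starts and ends after their values were seen, and the intervals are not adjusted for their number.

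**Figure D4:**
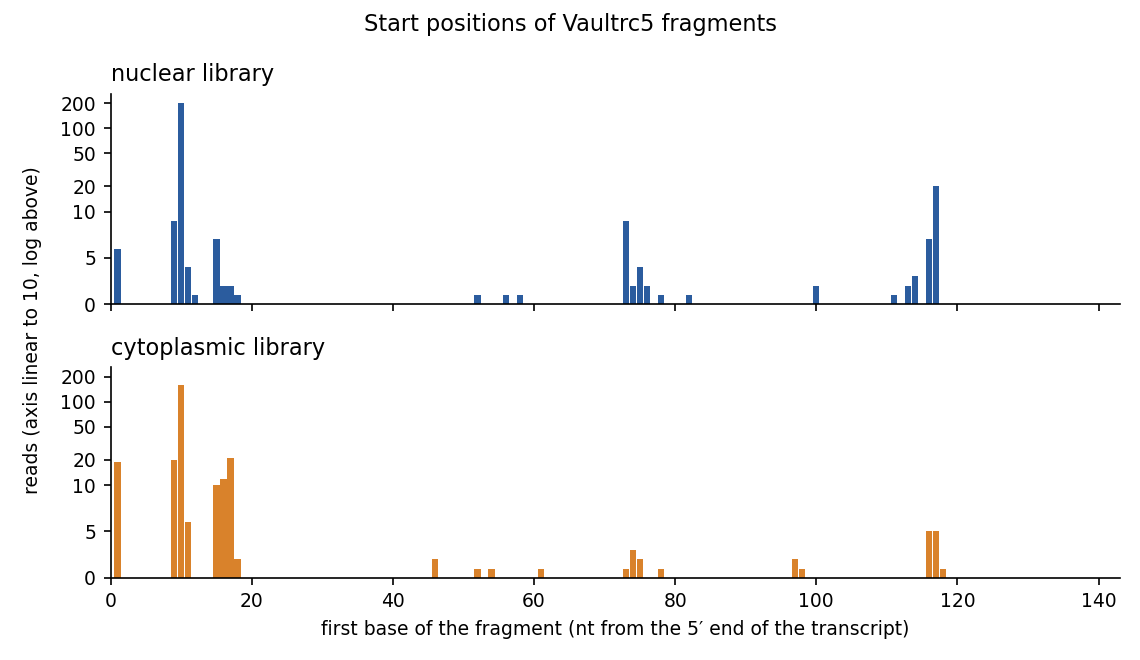
Reads of Vaultrc5 by first base, counted from the 5′ end of the transcript, in the nuclear (top) and cytoplasmic (bottom) library, on an axis that is linear to 10 reads and logarithmic above. Position 10 held 200 and 159 reads; the cytoplasmic library had more reads at positions 1 and 17 (19 and 21 against 6 and 2), and the nuclear library more at 73 and 117 (9 and 20 against 1 and 5).

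The identity of the fragments was checked in several ways. No listed sequence matched the antisense strand of the 3 transcripts over its full length, and none matched when read backwards. Backwards matches of at least 18 nt are rare by coincidence, so that result was to be foreseen. Neither check can tell these RNAs from unannotated copies in the genome, which were not searched. Of the Rny1 sequences, 7 were also found in the annotated copies Gm24372, Gm24379 or Gm26168, with 5 nuclear and 8 cytoplasmic reads, and all of them started at position 41, 83 or 84. No sequence of Rny3 or Vaultrc5 was shared. Rny1 and Rny3 begin with the same 11 letters but for the third, GGNTGGTCCGA. Sequences beginning with these letters that matched neither RNA had 37 nuclear and 4 cytoplasmic reads, against 529 and 100 in those that did. With 1 mismatch allowed, Rny3 gained 31 nuclear and 8 cytoplasmic reads, Rny1 9 and 5, and Vaultrc5 13 and 17, and no call of an RNA changed.

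Other transcripts of RNA polymerase III that La binds were set beside these RNAs. With Rn7s1 and Rn7s2, which share all their reads, taken as 1, the list held 6 such RNAs. At least 50 reads were found for 5 of them, of which 2 were called higher and 0 lower, where 43.8% of all entries were higher. Their median log2 ratio was 0.83, against 0.71 over all entries. Rnu6, the U6 RNA of the spliceosome, had 2783 nuclear and 308 cytoplasmic reads and Rmrp, which acts in ribosomal RNA processing, had 58 and 10, ratios of 9.22 and 5.92. These were the 2 called higher, and Rnu6 was also 1 of the 5 markers fixed for the nuclear fraction. Rn7sk, which restrains transcription elongation, had 1461 and 914 reads (ratio 1.63), and Rn7s1, the RNA of the signal recognition particle, had 376 and 216 (ratio 1.78). Rpph1, the RNA of RNase P, had 27 and 28 reads and the neuronal Bc1 had 1 and 0.

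**Figure D5:**
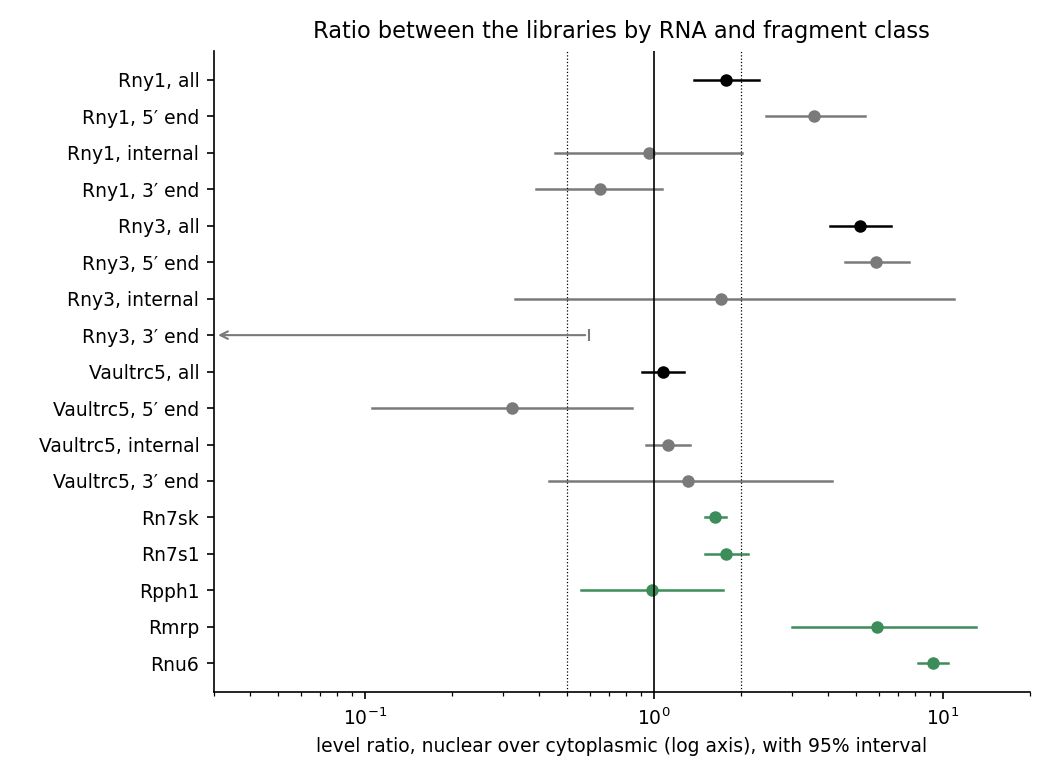
Level ratio, nuclear over cytoplasmic, on a log axis with exact 95% intervals for the 3 RNAs (black), their fragment classes (grey) and other RNA polymerase III transcripts (green); the solid line marks equal levels, the dotted lines 2-fold, and the arrow a class with no nuclear read. The 5′ fragments of Rny1 (3.59) and Rny3 (5.87) stand to the right of 2-fold, and the 3′ fragments of both to the left of equal levels.

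By nearness of the log2 ratio between the 2 libraries, the entries most like Rny1 were Kpna4, Rn7s1 and P4ha1 (0.82, 0.83 and 0.83 against 0.83). Those most like Rny3 were Rpl13, Mir677-5p and Wdr1 (2.36, 2.37 and 2.38 against 2.36), and those most like Vaultrc5 were Gm22973, Mir18-5p and P4hb (0.10, 0.09 and 0.09 against 0.10). With 980 entries over 2 libraries, such nearness is common.

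Fragments of the messenger RNAs for proteins of these particles were few. Of 12 such genes 0 reached 50 reads, counting every read that matched the gene, also where another gene shared it. Trove2, which encodes Ro60, had 25 nuclear and 3 cytoplasmic reads, and Ssb, which encodes La, had 1 and 5. Mvp, the gene of the major vault protein, had 31 and 12, and the further vault proteins Tep1 and Parp4 had 25 and 8 and 18 and 19. Nsun2, which methylates vault RNA, had 3 and 4 reads, and Srsf2, which affects its cutting, had 19 and 5. Dusp11, a phosphatase that acts on RNA polymerase III transcripts, had 9 and 11. Other values were those of Ybx1 (11 and 13), Puf60 (18 and 1) and Znfx1 (17 and 20). Short pieces of a messenger RNA do not measure its level.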

How the data were processed

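Small RNAs were sequenced from 1 nuclear and 1 cytoplasmic library. The authors deposited 1 table of distinct sequences with values in RPM. The submitters' processing notes name CASAVA and mm10. No source used here gives the trimming, filters or alignment. The columns differ in their last letter, read as N for nuclear and C for cytoplasmic. In both columns 100% of values above 0 were whole multiples of 1 read (0.500 and 0.490 RPM; tolerance 0.1 read), and counts were recovered from them. Sequences of 18 to 39 nt were matched to GENCODE vM21 transcripts (GRCm38), and each entered 1 entry (a gene, or an arm of a miRNA hairpin). With 1 library per group a count model had no residual degrees of freedom and no p-value is given. Intervals came from scipy 1.17.1, structures from RNAfold 2.7.2, and alternative scalings from edgeR 4.0.16 (TMM factors) and DESeq2 1.42.0 (median of ratios). Scripts were tested on simulated data. The members, lists and alternatives were chosen with earlier results of these data known. The named sequences were chosen from the 6 with most reads of each RNA and the most read one of each fragment class, and single starts, ends and 2 further sequences were named after their values were seen. Depth was 2000019 nuclear and 2041383 cytoplasmic reads. Of the listed particle genes, 1 is not reported here.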

Additional observations from a re-analysis of the deposited data

How the results depend on the processing

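Of 246 values recomputed under other settings, 183 kept their direction and their call, or moved less than their counting interval. Among the 183 are 3 shares of entries called, which have no such interval and were judged by a set fold change instead. Rny3, its 5′ fragments and the 5′ fragments of Rny1 stayed higher in the nuclear library under every alternative but 1, the count of distinct sequences instead of reads. That count is scaled to the distinct sequences listed, which are more numerous in the nuclear library, and it turned most log2 ratios negative: Rny1 -1.37, Rny3 -1.38, Vaultrc5 -1.35, Rny1 5′ -1.11, Rny3 5′ -1.06, Rny3 internal and Vaultrc5 3′ -0.88 each and Vaultrc5 internal -1.34. It gave -1.37 for Rny1 internal and -1.55 for Rny1 3′, both then called, and -1.77 for Vaultrc5 5′, no longer called, and the Rny1 5′ over 3′ comparison fell to 0.44. With TMM factors the log2 ratios were -0.49 for Vaultrc5, -0.42 for its internal and -0.22 for its 3′ fragments, and -1.20 for Rny1 3′. With the median of ratios they were -0.61, -0.54, -0.34 and -1.32, and -0.029 for Rny3 internal. Scaled to the miRNA total, Rny1 was called higher (1.71), as was Vaultrc5 internal (1.05), Rny1 internal and 3′ turned to 0.83 and 0.27, and Rny3 3′ (-3.17) and Vaultrc5 5′ (-0.67) lost their calls. Scaled to reads with a transcript match, Rny1 was called higher (1.25), Rny1 internal turned to 0.37 and Vaultrc5 5′ lost its call (-1.13).

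Rny1 internal turned to 0.31 without sequences that other transcripts share and to 0.26 with sequences of at least 2 reads, and Rny3 internal to -0.21 with 1 mismatch. The lower call of Rny3 3′ was lost with full-length matches (-3.14), sequences of at least 2 reads (-2.29) and an end distance of 0 nt (-1.56). At 0 nt Rny1 3′ was 2.35, and the 5′ over 3′ comparisons were -0.52 for Rny1 and 4.22 for Rny3, both on 1 or 2 reads. At 10 nt Rny1 internal was -3.67 and Vaultrc5 3′ 1.57, both called, Vaultrc5 5′ turned to 0.13 and Vaultrc5 internal to -0.66.

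Over distinct sequences, start 1 held 33.3% of nuclear Rny1, 72.4% of nuclear and 50% of cytoplasmic Rny3, and start 10 held 16% of nuclear and 13.0% of cytoplasmic Vaultrc5, with median lengths of 24 nt (Rny1, nuclear), 23 nt (Rny3, both libraries), 22.5 nt and 22 nt (Vaultrc5). Without the most read sequence the Rny3 medians were 23 and 23.5 nt, and start 10 held 52.7% and 37.0% of Vaultrc5. With at least 20 nt it held 76.3% and 66.2%, and with at least 2 reads start 1 held 89.2% of cytoplasmic Rny3. Of all entries, 16.0% were higher and 1.37% lower with no read minimum, and 6.24% lower with a minimum of 20 reads. The cause of these changes was not tested unless given.

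No paired analysis was possible because each fraction has 1 library. Counts of 0 to 20 reads, as for the Rny3 3′ and Vaultrc5 5′ fragments, leave wide intervals, and no interval covers variation between cultures or fractionations.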
